A study of Mus musculus with 4 samples.

Results

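Among the RNAs that DDX5 bound in cultured mouse Th17 cells, 10 genes stood out by a very high enrichment at a single, mostly short stretch of an intron. DDX5 is a DEAD-box RNA helicase. The genes are Gm26636, Tex14, Slc22a22, Plcb4, Pdgfra, Arid4a, Cfap97, Auts2, Peak1 and 9330185C12Rik. They were chosen by name for their enrichment of immunoprecipitate (IP) over input at a single short site, and described as isolated and intronic. Enrichment, width, isolation and intronic position are therefore given below as descriptions and are not tested. The 10 genes hold 22 of the 900 peaks in the authors' reproducible list, which names 459 genes in all. When peaks of a strand that touch or overlap were joined, the list formed 760 sites and each of the 10 genes had 1 of them.

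The peaks come from enhanced crosslinking and immunoprecipitation (eCLIP), in which ultraviolet light fixes a protein to its RNA, RNase trims the RNA, and the fragments left with the protein are sequenced. The series holds 4 libraries: 2 DDX5 IP libraries, made with an antibody to DDX5, and 2 input libraries, which had none. All come from wild type C57BL/6 female mice, 8 weeks old per the labels and 8 to 10 weeks old per the design text, which names 2 mice. Naive CD4 T cells had been grown for 72 h with IL6, TGFb and antibodies to CD3 and CD28 to make Th17 cells, the helper T cells that produce interleukin-17. There is no DDX5-deficient group and no IP with another antibody. The list gives 1 log2 enrichment and 1 −log10 p per peak for both replicates together, so no spread between replicates and no read depth can be given for any value below.

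DEAD-box helicases bind RNA mainly through its backbone and use ATP to open short duplexes or to displace proteins. DDX5 takes part in pre-mRNA splicing, in the processing of primary microRNAs and ribosomal RNA, and in transcription as a partner of nuclear receptors. In eCLIP an intronic site can come from the unspliced transcript of the host gene, or from a separate small RNA whose gene lies within that intron. The region class alone does not tell these apart, so each site is set here beside its strand, its distance from splice sites and any small RNA gene annotated at the same place.

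The bases under 2 of the 10 sites could be read, because RefSeq promoter windows of other genes (GRCm38.p6, the assembly behind mm10) cover them. They are shown because one is the most enriched site of the list and the other starts right behind a splice donor. Both are written from 5′ to 3′ on the RNA strand, with the bases of the site in capitals. For Gm26636 the first 30 of its 39 bases are given (chr6:87913910-87913939, minus strand). For Cfap97 the run starts at the first base of the annotated intron (chr8:46151914-46151952, plus strand), and its 13 lower-case bases lie between the splice donor and the site.
Gm26636 site: ACCCCGCCCCGCCCCCGACGTGACGTCGCG
Cfap97 intron: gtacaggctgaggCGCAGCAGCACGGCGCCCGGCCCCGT
The Cfap97 run opens with gt, the usual start of an intron. Over the whole site, G and C made up 84.6% of the bases in both. Of the other 750 sites, 30 could be read in the same way, all near the start of a gene, and their median was 82.3% (quartiles 76.4 and 84.5). C outnumbered G in both sites, with 51.3% C and 33.3% G for Gm26636 and 50% C and 34.6% G for Cfap97. Of the 30 other sites, 4 had more C than G, and their medians were 33.0% C and 45.9% G. The letters GGG occurred in the Gm26636 site and in 28 of the 30 others (93.3%), but not in the Cfap97 site. This search was made on the strand of the site. Each full site sequence was found in 1 of 32851 promoter windows, searched on both strands, namely the window it was read from. The rest of the genome was not searched, and the bases of the other 8 sites were not analysed here.

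The highest value of the list belonged to the noncoding gene Gm26636 (ENSMUSG00000097763.1), whose single peak at chr6:87913901-87913939 stood at 9.45 on the log2 scale of IP over input, or 700.1-fold. The second noncoding host, the lincRNA gene 9330185C12Rik (ENSMUSG00000097648.1), had the lowest maximum of the 10, 7.66 (201.7-fold), within a site at chr1:113903950-113904043. The gap between these 2 ends of the group is 1.80 on the log2 scale. Across the 10 sites the median of the highest peak was 8.08 (269.9-fold), against 5.38 (41.6-fold) over all 760 sites. A log2 enrichment at or above the lowest of the 10 was reached by 11 of the 760 sites (1.45%) and by 19 of the 900 peaks (2.11%), a count that the choice of members fixes. The remaining site of the 11 lies outside genes at chr7:130834455-130834494 and reached 8.52. Just outside the choice stood Pmepa1 with 7.55, a pair of Gm17018 sites with 7.30 and Ski with 7.24, so the step from the last member to the next gene was 0.10 on the log2 scale.

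Among genes of signalling, Plcb4 (ENSMUSG00000039943.16), a phospholipase C that acts downstream of G protein-coupled receptors and is best known from retina and cerebellum, had a site at chr2:135895586-135895611 with 8.29 (312.9-fold). Pdgfra (ENSMUSG00000029231.15), a receptor tyrosine kinase of mesenchymal cells, had one at chr5:75156740-75156764 with 8.11 (275.8-fold). Peak1 (ENSMUSG00000074305.9), a pseudokinase of the cytoskeleton, reached 7.66 (202.1-fold) at chr9:56223736-56223772. Slc22a22 (ENSMUSG00000022366.12), a prostaglandin transporter of the kidney, reached 8.36 (328.5-fold) at chr15:57433211-57433262. The spread among these 4 sites is 0.70 on the log2 scale.

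Of the remaining genes, Arid4a (ENSMUSG00000048118.17), which encodes a chromatin protein that binds the retinoblastoma protein, had a site at chr12:71016599-71016633 with 8.04 (264.0-fold). Auts2 (ENSMUSG00000029673.17), a regulator of transcription in neuronal development, had one at chr5:131595011-131595039 with 7.71 (208.8-fold). Tex14 (ENSMUSG00000010342.16), needed for the bridges between male germ cells, reached 8.37 (330.3-fold) at chr11:87462467-87462510 and came after Gm26636 among genes. Cfap97 (ENSMUSG00000031631.15), named for cilia and flagella, reached 7.75 (215.3-fold) at chr8:46151927-46151952. Several hosts are thus known chiefly from tissues other than T cells. How much of each host transcript the cells made is not known from this list, since the values are ratios to input and no level of expression was analysed here.

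**Figure D1:**
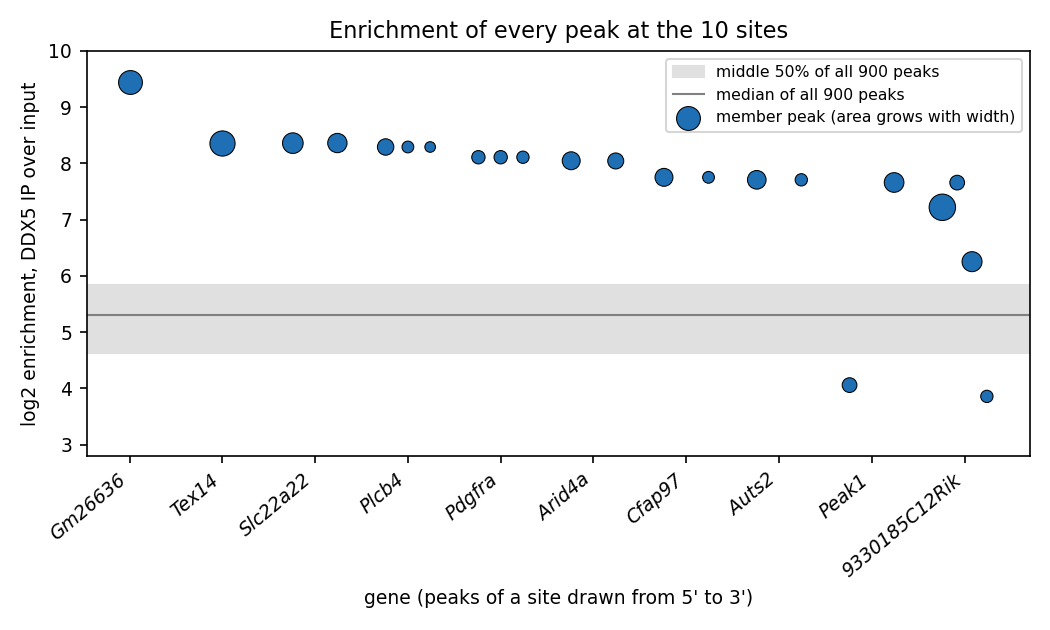
Log2 enrichment of DDX5 IP over input (y axis) for each of the 22 peaks at the 10 sites, by gene (x axis). Each point is 1 peak, with an area that grows with its width; the line and the grey band are the median (5.31) and the middle 50% (4.64 to 5.84) of all 900 peaks, and only the weaker peaks of Peak1 (4.06) and 9330185C12Rik (3.86) fall under the band.

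Most of the sites were short, a property used in the choice. Pdgfra had the narrowest with 25 nt, Cfap97 and Plcb4 had 26 nt each, and Auts2 had 29 nt. Arid4a (35 nt), Peak1 (37 nt), Gm26636 (39 nt), Tex14 (44 nt) and Slc22a22 (52 nt) followed. The site of 9330185C12Rik was 94 nt wide, above the median of 72 nt over all sites, so the description as short does not hold for it. The other 9 were no wider than 52 nt, as were 185 of all 760 sites (24.3%). By the median, short sites as such were not the higher ones of the list. The 43 other sites of up to 30 nt had a median log2 enrichment of 5.04, and the 105 sites over 120 nt, none of them from these genes, had 5.62. Values of at least 7 were nevertheless more frequent among short sites, but few sites reached them and the difference was not tested. Of the 750 other sites, 176 were of up to 52 nt, and 6 of these reached 7. These 6 include a pair of Gm17018 sites 6 nt apart with identical values, which may not be separate observations. Of the more numerous wider sites, 7 did.

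**Figure D2:**
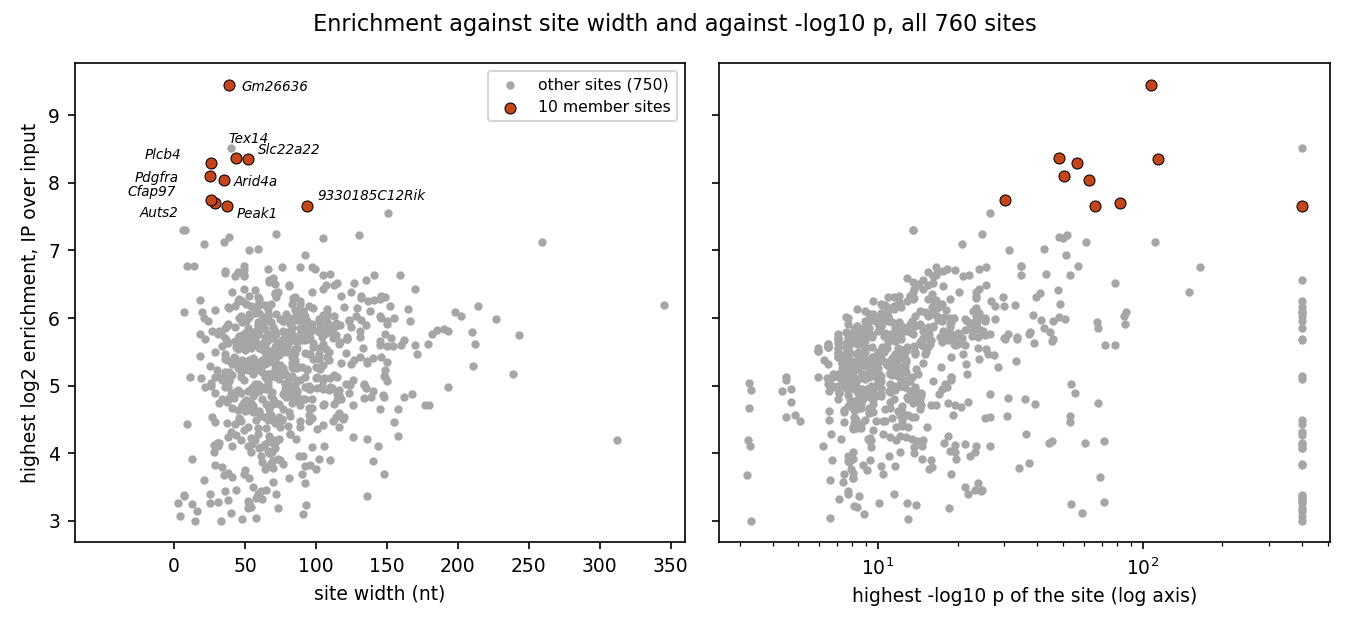
Highest log2 enrichment of IP over input (y axis of both panels) against site width in nt (left) and the highest −log10 p on a log axis (right), for the 10 sites (orange) and the other 750 (grey). In the left panel 9 of the 10 sites lie at widths of 25 to 52 nt and 9330185C12Rik at 94 nt; in the right panel Peak1 stands at the ceiling of 400 and the others between 30.2 and 114.

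The list split most of these sites into adjoining pieces. Gm26636 and Tex14 had 1 peak each, 5 sites had 2, Plcb4 and Pdgfra had 3, and 9330185C12Rik had 4. Thus 8 of the 10 sites were made of several peaks, against 12.2% of all sites. Single pieces were as narrow as 4 nt (Plcb4), with a median of 15.5 nt for the 22 peaks and 65 nt for all 900. In 7 of the 8 split sites all pieces carried the same −log10 p, whereas 32.3% of the 93 split sites in the list did. For Peak1 the shared value is the ceiling of 400, which can hide a difference. In Plcb4, Pdgfra, Cfap97 and Auts2 the pieces also had an identical log2 enrichment, as in 12.9% of the 93. Arid4a (8.04 in both pieces) and Slc22a22 (8.36 in both) differed by less than the rounding to the second decimal. Pieces with identical values are not separate observations, and for the 4 genes with identical pieces the list holds 1 value per site.

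Peak1 and 9330185C12Rik behaved differently, with pieces that varied along the site. Read from 5′ to 3′ on the RNA strand, the first 12 nt of the Peak1 site stood at 4.06 (16.6-fold) and the following 25 nt at 7.66. These values differ by 3.60 on the log2 scale over neighbouring bases. In 9330185C12Rik the 49 nt at the 5′ end had 7.22, the next 12 nt 7.66, a further 26 nt 6.25 and the last 7 nt 3.86 (14.5-fold). The −log10 p of these pieces was 39.99, 65.9, 47.1 and 6.26, also highest in the second and lowest in the last. The third piece had a higher −log10 p than the first, although its enrichment was lower. The high enrichment of this site therefore covers its 5′ and middle parts and not its 3′ end.

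**Figure D3:**
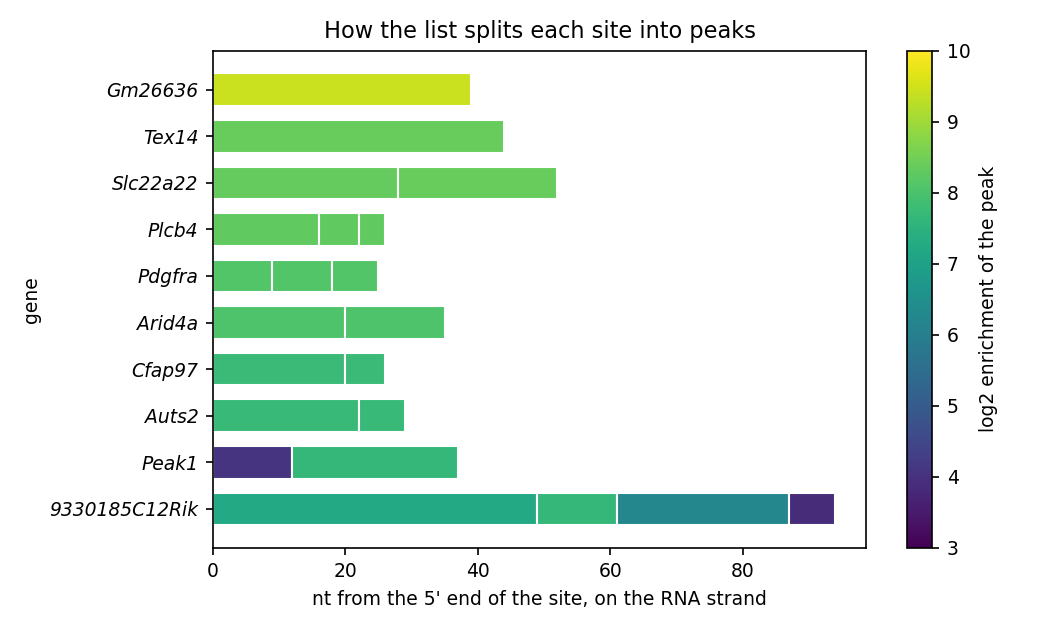
Pieces into which the list divides each of the 10 sites, drawn along the RNA in nt from the 5′ end of the site (x axis), 1 row per gene and coloured by log2 enrichment. Pieces share nearly 1 colour in all split sites except Peak1, whose first 12 nt are low (4.06), and 9330185C12Rik, whose last 7 nt are low (3.86).

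The sites were spread over 9 chromosomes, with Pdgfra and Auts2 both on chromosome 5. The plus strand held 5 of them and the minus strand 5, close to the 50.1% of all sites on the plus strand, and each lay on the strand of its named gene. Every site was intronic in every transcript of its gene that the authors' annotation placed over it, 29 transcripts in all, and none overlapped an exon of those transcripts. Over all sites, 60.4% had their highest peak in an intron. The authors' classes put 7 of the 10 deep in an intron (31.4% of all sites) and 3, Gm26636, Arid4a and Cfap97, near a splice site. Introns of noncoding genes held 2 of the 10, against 1.84% of all sites. Since intronic position is part of how the group was described, these counts are given with no test.

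The distance to the closest splice site ran from 13 nt in Cfap97 to 42986 nt in Slc22a22, whose host intron is 212560 nt long. Gm26636 lay 348 nt, Pdgfra 390 nt and Arid4a 437 nt from a splice site. Pdgfra is classed as deep although its distance is shorter than that of Arid4a, which is classed as near. The other 5 sites were farther away, with 3329 nt for Peak1, 5291 nt for 9330185C12Rik, 7821 nt for Plcb4, 11893 nt for Tex14 and 20917 nt for Auts2. The median was 4310 nt for the 10, and 278 nt for the 579 sites of the list that lie within an annotated intron. For the 232 other sites classed as deep in an intron it was 902 nt, with an upper quartile of 5546 nt. In 4 genes (Cfap97 with 156 nt, Gm26636 with 520, Arid4a with 570 and Pdgfra with 841) fewer than 1000 nt separated the site from the nearest annotated transcript start. In the other 6 that distance was 7892 nt (Plcb4) or more. It was not computed for the rest of the list, so whether 4 of 10 is many or few cannot be said.

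Most of the sites stood alone, which is part of how the group was described, so the distances are given with no test. The nearest other site on the chromosome, on either strand, was over 1 Mb away for 8 of the 10, and farthest for Gm26636 at 15014703 nt. The median distance was 2330814 nt, against 1981 nt over all sites (upper quartile 943309 nt). For Tex14 the nearest was a site of Mir142hg, 294093 nt away. The Cfap97 site was not isolated, because a site of Snx25, a sorting nexin gene, began 48 nt beyond it on the opposite strand (chr8:46152001-46152140, minus strand, log2 enrichment 5.41, 42.6-fold). That peak lies in coding sequence of Snx25. The same Snx25 exon (chr8:46151782-46152159) spans the Cfap97 site on the other strand, so both strands of this exon carry a DDX5 site.

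The annotation behind Cfap97 also rests on a single transcript. Its site fell in the first 39 nt of an intron of the 1 annotated transcript there, and the RefSeq model of Cfap97 begins downstream, at position 46162095. Of the 8 member genes found in RefSeq by symbol, the other 7 held their site within the RefSeq gene. Gm26636 and 9330185C12Rik were not found in that table. Gm26636, annotated as an antisense gene, runs opposite to Hmces, which encodes a sensor of abasic DNA sites. Its site lies 37 to 75 nt upstream of one RefSeq start of Hmces, at 87913976. The RefSeq extent of the Hmces gene nevertheless overlaps the site. Both sites thus read opposite to another gene, near a start of Hmces and across a coding exon of Snx25 in the authors' annotation. By RefSeq the Cfap97 site also overlaps the extent of the Snx25 gene. It lies 164 to 189 nt upstream of one start of that gene, at 46151763. Of the 30 other sites with bases at hand, 4 lay opposite to the gene of the window. No peak was named for Hmces.

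Small RNA genes lay under 2 of the 10 sites on the same strand, Tex14 and Peak1, against 10.3% of all sites. In Tex14 the site overlapped Rnu3b4, a copy of the U3 small nucleolar RNA, which is needed for early cleavages of the ribosomal RNA precursor. The site ran from nt 182 to nt 225, counted from the 5′ end of the 216-nt annotated RNA, so that 35 of its 44 nt fell within the 3′ part of U3 and 9 nt beyond its end. Among the 40 sites in snoRNA genes it had the highest enrichment, 8.37, with the next at 4.86 and a median of 3.79. Its first place follows from the choice of members by enrichment. Tex14 holds 4 RefSeq U3 copies (Rnu3b1, Rnu3b2, Rnu3b3 and Rnu3b4), and only Rnu3b4 carried a peak.

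The fifth U3 copy of the list, Rnu3a on chromosome 10, differed in both place and height. Its 4 peaks covered nt 36 to 87 and nt 138 to 175 of a 214-nt RNA, with log2 enrichments of 3.02 to 3.31 and a −log10 p at the ceiling of 400. The Rnu3b4 site, at the 3′ end, had a −log10 p of 48.5. Reads of nearly identical copies can be placed at any of them, so the copy that a peak is named for is uncertain, and the part of this in the Tex14 value was not tested.

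The Peak1 site overlapped Gm24270, a 57-nt gene annotated as a microRNA. The first peak reached from 1 nt before the 5′ end of Gm24270 to its nt 11, and the strong peak covered nt 12 to 36. The change from 4.06 to 7.66 thus falls within the small RNA. Of 10 sites over entries of the microRNA class, this had the highest enrichment, with a median of 5.12 over the 10. Several of these 10 sites also lie in an annotated rRNA or snoRNA gene. The median is therefore not one of microRNA entries alone. That place, too, follows from the choice of members by enrichment. Similar unnamed entries with a site were Gm23935 (57 nt, log2 enrichment 4.15 at nt 23 to 54), Gm23388 (57 nt, 5.11 at nt 21 to 39) and Gm25911 (56 nt, 4.98 at nt 32 to 53). The site sequences and mature forms of these entries were not analysed here.

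**Figure D4:**
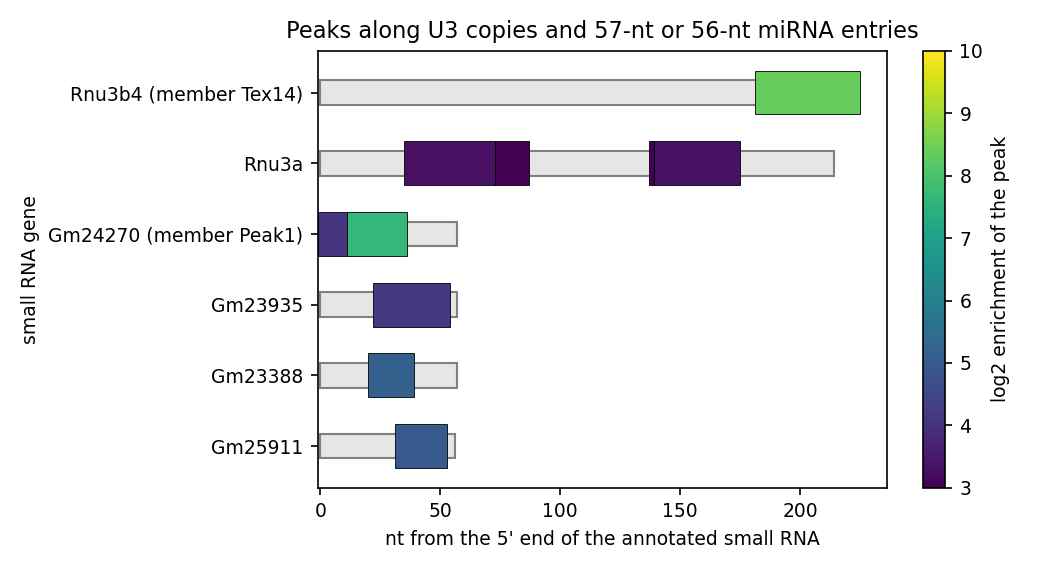
Position of peaks (coloured by log2 enrichment) along annotated small RNAs (grey bars), in nt from the 5′ end (x axis), 1 row per gene. The Tex14 site covers the 3′ end of Rnu3b4 (nt 182 to 225), the peaks of Rnu3a lie inside that RNA, and the strong Peak1 piece covers nt 12 to 36 of Gm24270.

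The remaining 8 sites had no snoRNA, scaRNA, snRNA, rRNA, microRNA or other small RNA entry in the authors' annotation. Their introns gave no other gene on the same strand at the site. With small RNA genes of the RefSeq table, which carries no strand, the count stayed at 2.

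The −log10 p of the sites was high as well, and is a second measure of the same contrast. It reached the ceiling of 400 in both peaks of Peak1, as in 8.0% of all peaks and 4.47% of all sites. The other sites had highest values of 114 (Slc22a22), 107.7 (Gm26636), 82.2 (Auts2), 65.9 (9330185C12Rik), 62.6 (Arid4a), 56.6 (Plcb4), 50.4 (Pdgfra), 48.5 (Tex14) and 30.2 (Cfap97). The median of the 10 was 64.2, and that of all sites 11.7. A value at or above that of Cfap97 was found in 14.3% of all sites. Height and −log10 p did not follow the same order among the 10, since Peak1 ranked 10 among all sites by height and stood at the ceiling by −log10 p.

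Few genes of any kind carry a peak in this list, which names 389 of 21896 RefSeq protein-coding genes by symbol (1.78%). Of 28 genes from the families of Plcb4, Pdgfra, Arid4a, Auts2, Peak1 and Slc22a22, such as Plcb1, Pdgfrb, Kit, Arid4b, Fbrsl1 and Slc22a5, 0 had a peak, a count too close to that share to say anything about these families. Of 26 small RNAs looked up by name, the annotation placed 3 under a peak, Rnu3a, Rnu3b4 and Rnu7. Rnu3b4 counts only through the Tex14 site, which was chosen for its enrichment. The share of all small RNA genes under a peak is not given here, so this count says nothing about these RNAs as a group. The labelled cell type could not be checked by expression. Of 6 Th17 genes, Rora and Ahr had peaks and Il17a, Il17f, Il23r and Ccr6 had none. Of 4 general T cell genes and 4 genes of other cells, 0 had a peak, and lists of this size cannot be told apart from the share of all genes. A gene without a peak in this list is not shown to be unbound.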

How the data were processed

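Samples were grouped by title into DDX5 IP and input. Tools in the submitters' processing notes are cutadapt 1.9.1, STAR 2.4.0i and SAMtools 1.4.1, with build mm10. Each IP was, per the deposited settings, set against its own input, replicates were combined by irreproducible discovery rate, repeats were not mapped separately, and both the log2 fold and the −log10 p had a minimum of 3. Not given in the sources used here are the peak caller, annotation release and merging rule. The authors' deposited log2 values are fold enrichments of IP over input, and their deposited −log10 p is capped at 400. Both only describe and rank peaks within the list.

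Starts are taken to count from 0, which makes the Cfap97 intron begin with GT (GG if they counted from 1), and printed positions count from 1. Peaks were assigned by any name in the name field and joined on 1 strand at a gap of 0 nt. A site takes its highest peak. A small RNA (snoRNA, scaRNA, snRNA, rRNA, miRNA or misc_RNA) counted at an overlap of at least 1 nt on the same strand. Joining and the reverse complement of cut sequences were tested on simulated data, and the lookup of bases in the promoter windows was not. Named are the 10 hosts, the 5 highest sites outside them and the small RNAs they overlap with other copies; Snx25, Hmces, Mir142hg, the other unnamed microRNA entries, n-R5s161, Yap1 and Adarb2 were added after their values were seen. Members and lists were chosen with earlier results of these data known. No test was run, since the rule used enrichment and width. A further item of the marker list is not reported here. Depth is unknown. Python 3.11.15, pandas 2.3.3, numpy 2.4.6 and matplotlib 3.10.9 were used.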

Additional observations from a re-analysis of the deposited data

How the results depend on the processing

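Joining peaks up to 50 or 1000 nt apart, or using only the first gene name, left 22 peaks in 10 sites. A log2 enrichment of at least 4 left 21 peaks, one of at least 6 left 20, and a −log10 p of at least 10 left 21, each still in 10 sites. The median width was 36 nt, or 37 with starts counted from 1. The median enrichment of the 10 sites was 8.08 on the log2 scale with the highest peak, 8.08 with a width-weighted mean and 8.07 with the lowest peak. By the width-weighted mean, 8 of the 10 stayed among the 11 highest sites of the list, while 9330185C12Rik (6.76) ranked 24 and Peak1 (6.49) ranked 44. Both sites over a small RNA kept at least 50% of their width within it. No paired analysis was possible because the list holds 1 value for both replicates, and for the same reason no replicate could be left out. A search for copies of the site sequences across the genome was planned and not run, since no genome was used here. Enrichment is a ratio to input, and how low input coverage bears on it was not tested.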

Other observations

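Short, high sites were not limited to the 10 genes. Of 176 other sites of up to 52 nt, 6 had a log2 enrichment of at least 7. The highest was the site outside genes at chr7:130834455-130834494, 40 nt wide, whose 4 pieces had 4.63 at the 5′ end then 4.63 and 6.46, and 8.52 at the 3′ end, all at the −log10 p ceiling. Gm17018 had a pair of sites of 6 and 8 nt with the same value of 7.30. The 5S ribosomal RNA copy n-R5s161 had 7.20 in 39 nt, Yap1, a transcriptional coactivator of the Hippo pathway, had 7.12 in 35 nt, and Adarb2, an RNA-editing enzyme homologue of the brain, had 7.09 in 21 nt. The wider sites among the 750 outside the 10 genes were more numerous, and 7 of them reached a log2 enrichment of at least 7.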
